A study of Arabidopsis thaliana with 9 samples.

Results

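Roots that overexpressed bHLH49 were compared with wild-type roots of Arabidopsis thaliana Col-0, across all genes that could be named on the array. The comparison used 6 of the 9 single-channel expression arrays of the series: 3 from the overexpressor and 3 from wild type. All plants were 4 days old when RNA was taken. The remaining 3 arrays, of a bHLH49 mutant, entered the estimate of the spread between arrays and the mean signal over the 9 arrays. That mean chose the probe set kept for a gene and set the signal classes. Mutant values are given only where so stated. The labels name neither the promoter that drives the overexpression nor the number of transgenic lines nor the mutant allele. Per the labels' protocols, seed was sown on half-strength Murashige and Skoog medium with kanamycin or phosphinothricin where transgenic seed was selected. Whether wild-type plants grew with an antibiotic is not stated, so selection and genotype cannot be told apart. The tissue label reads root and the source label root tips.

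Members were all genes with a probe set of their own. Of 38408 probe sets, 16722 were paired with exactly 1 gene, and these covered 16550 genes once a single probe set was kept for each. Another 759 probe sets were paired with several genes and 20927 were not listed in the annotation; these were tested but not named. bHLH49 itself had no named probe set, so the gain of its transcript was not analysed here and the labels were not checked by it. Arrays of a genotype carry repeat numbers in the labels, without a word on whether they came from separate plants, so the p-values measure a spread that may be partly technical.

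Basic helix-loop-helix (bHLH) proteins form one of the large families of plant transcription factors. They pair through the helix-loop-helix region and bind short DNA motifs through the basic region, and partners without a working basic region can hold them away from DNA. In roots, members of the family act in vascular patterning, root hair growth, iron uptake and the balance between division and elongation.

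Of the 16550 named genes, 261 (1.58%) passed the test, with 137 (0.828%) higher and 124 (0.749%) lower in the overexpressor. Passing means a Benjamini-Hochberg adjusted p below 0.05 in the limma fit over all 38408 probe sets, and "rose", "fell" and "called" are used only of genes that passed. Over all probe sets, 520 (1.35%) passed, 286 higher (0.745%) and 234 lower (0.609%). Values are log2 signals, so a change of 1 is a doubling, and changes are overexpressor minus wild type given with the fit's standard error (SE). The called genes had a median absolute log2 change of 0.66, and 52 of them (0.314% of named genes) changed at least 2-fold, 32 upward and 20 downward. The named genes as a whole had a median log2 change of -0.0077, with quartiles of -0.10 and 0.08. In bulk root RNA, a change in the number of cells of a type and a change in RNA per cell cannot be told apart.

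Calls were fewer when 1 array was left out, which changes both the number of arrays and which ones remain. When each of the 6 arrays was left out in turn, 76 of the 261 genes (33 higher and 43 lower) were called in all 6 refits and 98 were called in none. Values of both genotypes lay apart, with no overlap, in all 261, and likewise in 20.2% of all named genes. Without overlap a change cannot switch sign when 1 array is left out, so the refits did not test the sign. The number of called probe sets without overexpressor array 1, 2 or 3 was 245, 174 or 224, and without wild-type array 1, 2 or 3 it was 191, 197 or 239. For each named gene below, the number of refits in which it missed the threshold is given where it is above 0.

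Genes were divided into 4 signal classes of equal size by their mean log2 signal over the 9 arrays. Signal depends on the probes as well as on the transcript, so the classes order probe sets by brightness and not genes by abundance. In the dimmest class (signal 1.96 to 3.43) 8 genes were called, or 0.193%. The second class (3.43 to 5.66) had 55 (1.33%), the third (5.66 to 7.83) had 117 (2.83%) and the brightest (7.83 to 13.3) had 81 (1.96%). The median SE of the change was 0.11, 0.12, 0.086 and 0.065 in the same order, so the 2 brighter classes were measured more closely than the 2 dimmer ones.

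The called genes of each class are described next by size and direction. The called genes of the brightest class had a median absolute log2 change of 0.50, against 0.71 in the third, 0.75 in the second and 0.74 in the dimmest. Rises of at least 2-fold numbered 1, 13, 15 and 3 going from dim to bright, and falls of at least 2-fold numbered 0, 3, 10 and 7. The mean that sets the classes includes the overexpressor arrays, so a large rise itself moves a dim gene up. AT5G35870, AT2G18150, AT3G30730 and XTH20 stood in the second class with wild-type means of 2.90, 3.05, 3.17 and 3.23, under the upper bound of the dimmest class. No order of the classes is therefore read from these counts of large changes. In 14 of the called genes the wild-type mean was under every array's own lower quartile (3.66 to 3.70), where signal near background limits what a fold change can show.

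**Figure D1:**
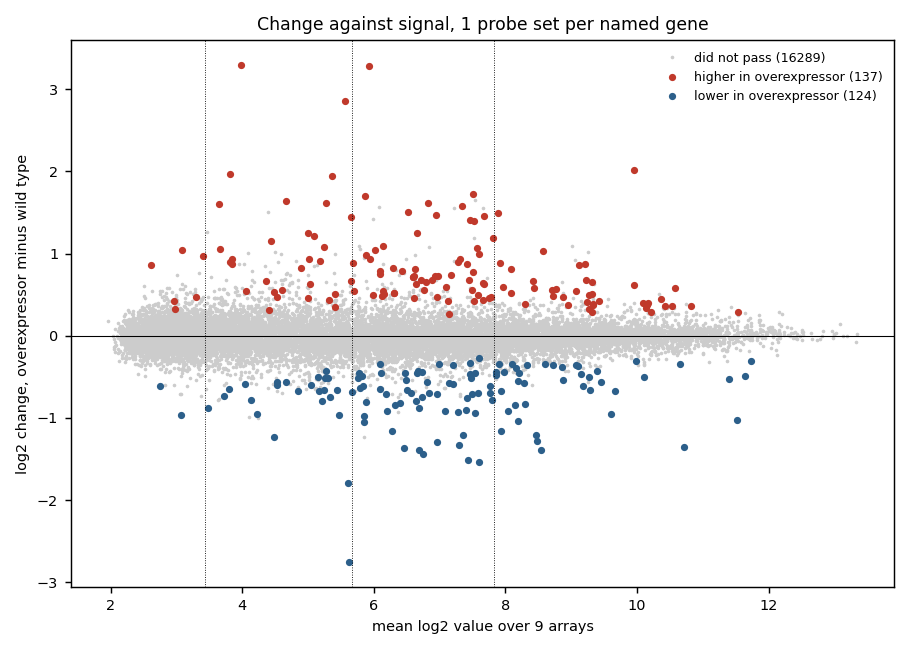
Log2 change (overexpressor minus wild type) of each of the 16550 named genes against its mean log2 signal over 9 arrays; red points rose (137 genes), blue points fell (124 genes), grey points did not pass, and dotted lines separate the 4 signal classes. Few coloured points lie in the dimmest class, which held 8 called genes, while the third class held 117.

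Past the 10 leading rises, the next 20 covered log2 changes between 1.04 and 1.61. AT1G65570, known as RCPG, a polygalacturonase of the root cap, had log2 signals of 8.34, 8.04 and 8.15 in the overexpressor and 6.50, 6.74 and 6.58 in wild type. The groups lay far apart beside their spread (log2 change 1.57 ± 0.15 SE, limma adjusted p = 0.00358). AT3G54510, of the ERD4 family of membrane proteins, stood at 7.56, 7.54 and 7.60 in the overexpressor and 6.14, 6.01 and 6.03 in wild type. Its change of 1.51 ± 0.08 had one of the smaller adjusted p-values of the comparison (0.000245).

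GH3.3 joins auxin to amino acids and is itself an early auxin-response gene; it had signals of 8.58, 8.71 and 8.50 in the overexpressor and 7.08, 6.53 and 7.68 in wild type. The overexpressor arrays agreed closely while the wild-type arrays covered more than a full log2 unit, and the change of 1.50 ± 0.25 (limma adjusted p = 0.0322) missed the threshold in 4 of the 6 refits.

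FACT, which transfers caffeoyl groups to fatty alcohols for root waxes, had signals of 7.35, 7.63 and 7.0 in the overexpressor and 5.87, 6.33 and 6.0 in wild type (change 1.26 ± 0.22, limma adjusted p = 0.0424, missed in 6 refits). OLEO3, an oleosin of the kind that coats oil bodies in seeds, stood at 5.25, 5.43 and 5.16 in the overexpressor and 4.15, 4.07 and 4.15 in wild type. Its change of 1.16 ± 0.11 (limma adjusted p = 0.00362) was called in every refit, and OLEO3 was the one called gene of 5 measured oleosins.

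AT5G49780, a leucine-rich repeat receptor kinase, had 6.54, 6.47 and 6.50 in the overexpressor and 5.51, 5.33 and 5.54 in wild type (change 1.04 ± 0.09, limma adjusted p = 0.00298). AT1G77640, an AP2/ERF-family transcription factor, rose by 1.08 ± 0.12 and AT4G18280, a glycine-rich protein, by 1.21 ± 0.14. AT5G37620, of the cysteine- and histidine-rich C1 domain family, rose by 1.45 ± 0.10, and JAL22, a jacalin-related lectin, by 1.39 ± 0.25, the last with a miss in 6 refits.

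The other genes of this group rose by between 1.05 and 1.61. They were the peroxidases AT4G36430 and AT5G39580, AT3G30730 (1.60), AT4G33800 (1.46), AT1G16850 (1.40), AT2G17055 (1.25), AT1G05835 (1.18), the dioxygenase-family AT4G16770 (1.09), the AAA-type ATPase AT2G18193 (1.07) and XTH20 (1.05). AT3G30730 was dim, with 4.82, 5.0 and 4.50 in the overexpressor and 3.37, 3.09 and 3.07 in wild type. AT2G18193 and AT4G16770 missed the threshold in 6 of 6 refits, and AT2G17055 in 5.

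Past the 10 leading falls, the next 20 covered log2 changes between -1.30 and -0.91. ICL, isocitrate lyase of the glyoxylate cycle that turns stored lipid into sugar in seedlings, had signals of 5.96, 5.87 and 5.72 in the overexpressor and 7.25, 6.81 and 7.38 in wild type. It fell by 1.30 ± 0.14 on the log2 scale (limma adjusted p = 0.00622). AT3G23510, which resembles cyclopropane fatty acid synthases, had 7.29, 7.13 and 7.10 in the overexpressor and 8.30, 8.45 and 8.24 in wild type (change -1.16 ± 0.09, limma adjusted p = 0.00188). ARAB-1, a GDSL-type lipase, fell by 0.97 ± 0.08.

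BGLU21, a root beta-glucosidase that cleaves the coumarin glucoside scopolin, was among the brightest of the called genes. Its signals were 10.96, 10.75 and 10.96 in the overexpressor and 11.84, 12.00 and 11.90 in wild type, a change of -1.02 ± 0.08 (limma adjusted p = 0.00204). ALDH3F1, an aldehyde dehydrogenase, fell by 1.16 ± 0.12 and ATGSTF13, a glutathione S-transferase of the phi class, by 1.04 ± 0.12. AT1G25460, of the dihydroflavonol reductase-like family, fell by 1.05 ± 0.12. These 4 enzymes were called in all refits.

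The defensin-like AT4G22230 had 6.67, 6.55 and 6.78 in the overexpressor and 7.74, 7.99 and 7.91 in wild type, a change of -1.21 ± 0.10 (limma adjusted p = 0.00274). Its relative AT4G22214 fell by 1.28 ± 0.17 and the defensin-like AT3G59930 by 0.96 ± 0.15, each with a miss in 4 refits. AT3G59930 was dim, at 2.85, 2.68 and 2.92 in the overexpressor and 3.51, 3.71 and 4.12 in wild type. The mutant arrays also lay below wild type, at 2.54, 2.71 and 2.51 (mutant minus wild type -1.19, limma adjusted p = 0.134). Mutant values are given for only some of the ranked genes, and those of other genes were not all near wild type. GH3.3 had 7.95, 8.00 and 8.00 in the mutant, above each wild-type array (mutant minus wild type 0.89, limma adjusted p = 0.443). AT3G54510 had 5.85, 6.07 and 5.83 in the mutant (mutant minus wild type -0.14, limma adjusted p = 0.668). AT5G44585, which lies in a cluster of precursors of SCOOP peptides, signals of plant immunity, fell by 0.95 ± 0.09, and AT5G44572 of the same region by 0.97 ± 0.14, the second with a miss in 4 refits.

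NGA3, a B3-domain factor of lateral organ growth, had 3.68, 3.74 and 3.51 in the overexpressor and 4.48, 4.65 and 4.68 in wild type (change -0.96 ± 0.09, limma adjusted p = 0.00358). The jacalin-related lectin AT5G35940 fell by 1.21 ± 0.13. Its signal lay below wild type in the mutant as well, at 7.76, 7.96 and 8.10 (mutant minus wild type -1.39, limma adjusted p = 0.0318). AT1G72850, with a TIR domain of the kind found in immune receptors, fell by 0.91 ± 0.07, and AT3G20360, a TRAF-like protein, by 0.91 ± 0.09. AT1G07460 (-1.23), AT4G30450 (-0.94), AT3G50150 (-0.93) and AT3G28650 (-0.91) fell too, and each of these 4 missed the threshold in 5 refits.

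**Figure D2:**
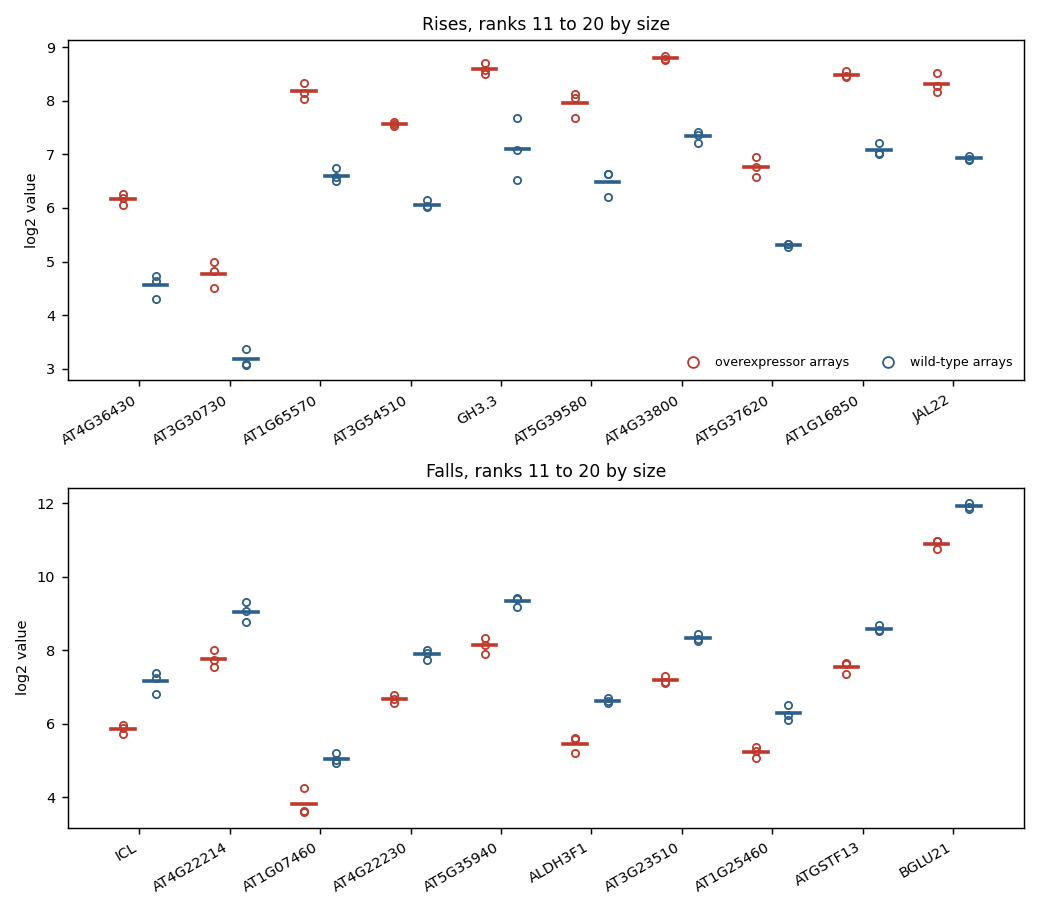
Log2 value of each array (open circles) and group mean (bars) for the genes ranked 11 to 20 by size among the rises (upper panel) and falls (lower panel), with the 3 overexpressor arrays in red to the left of the 3 wild-type arrays in blue. Only called genes without overlap were ranked, so the groups lie apart in all 20 genes by choice. GH3.3 shows the widest wild-type spread of the upper panel, at 6.53 to 7.68.

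Named genes were then gathered into 46 families and lists, by gene name or by locus. For each, the counts and median below stand beside 1.58% called and a median log2 change of -0.0077 over all named genes. Counts of changes above or below 0 stand beside 47.6% above and 52.4% below over all named genes. Counts are of measured members, in some families a small part of the listed genes. Measured were 24 of 240 cytochrome P450 genes, 7 of 72 WRKY factors, 8 of 32 Aux/IAA repressors and 9 of 42 cellulose synthase-like genes. Other such families were response regulators (8 of 24), xyloglucan endotransglucosylase/hydrolases (10 of 33) and glutathione S-transferases (15 of 49). Unmeasured members were not assessed. The lists describe these data and are not independent evidence, since they were chosen with the results known.

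Class III peroxidases are secreted enzymes that use hydrogen peroxide to cross-link or loosen wall polymers, lignin precursors included. Of 64 measured members, 6 rose and 0 fell, or 9.38% called, while the family median was 0.01. AT4G36430 had signals of 6.05, 6.27 and 6.19 in the overexpressor and 4.63, 4.31 and 4.73 in wild type (change 1.61 ± 0.21, limma adjusted p = 0.0131, missed in 4 refits). AT5G39580 had 7.68, 8.06 and 8.12 in the overexpressor and 6.63, 6.64 and 6.20 in wild type (change 1.47 ± 0.17, limma adjusted p = 0.00956), and missed only without overexpressor array 2, at an adjusted p of 0.0517. AT2G18150 was the member with the largest change, 1.96 ± 0.32, with 5.14, 5.37 and 4.52 in the overexpressor and 3.33, 2.53 and 3.28 in wild type, and missed in 5 refits.

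The other called peroxidases moved less and were brighter. AT2G43480 rose by 0.61 ± 0.05, with 10.38, 10.39 and 10.33 in the overexpressor and 9.77, 9.76 and 9.73 in wild type, and was called in every refit. AT1G68850 rose by 0.56 ± 0.08 (missed in 6) and AT2G38380 by 0.45 ± 0.08 (missed in 5). The family thus split into a few rising members and a majority near 0.

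**Figure D3:**
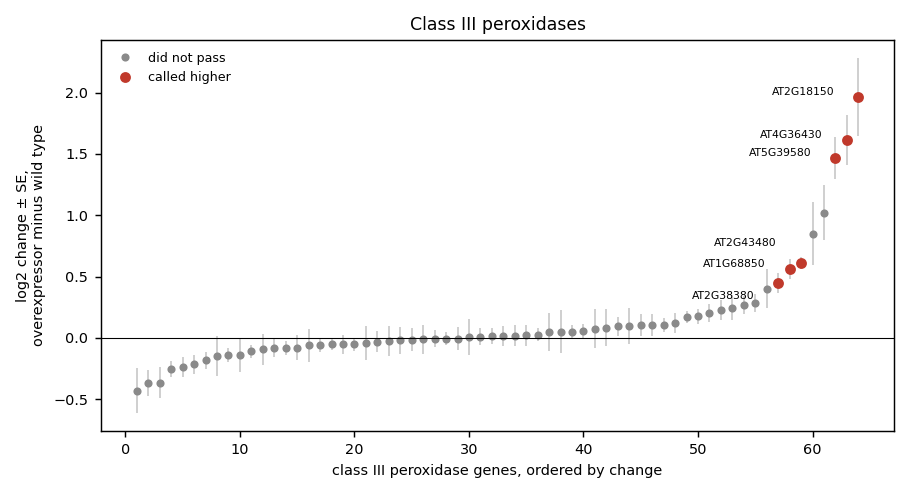
Log2 change ± SE (overexpressor minus wild type) of the 64 measured class III peroxidase genes, ordered by change, with the 6 called genes in red and labelled by locus. Most members lie near 0, with a family median of 0.01, and the called genes, between 0.45 and 1.96, are all on the positive side.

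Among expansins, xyloglucan enzymes and GH9 endoglucanases, which act on wall polysaccharides, each called member rose. Expansins, which loosen the wall without cutting it, had 2 of 23 called: EXPA4 stood at 7.99, 8.28 and 8.22 in the overexpressor and 7.15, 7.15 and 7.22 in wild type (change 1.00 ± 0.10, limma adjusted p = 0.00498), and EXPA9 rose by 0.36 ± 0.07 (missed in 6 refits). Of 10 xyloglucan endotransglucosylase/hydrolases, which cut and rejoin xyloglucan, XTH20 rose by 1.05 ± 0.14 (missed in 3) and EXGT-A3, also named XTH27, by 0.27 ± 0.05 (missed in 6). Of 19 GH9 endoglucanases, which cut glucan chains, GH9C3 rose by 1.04 ± 0.07, with 9.30, 9.40 and 9.28 in the overexpressor and 8.40, 8.30 and 8.18 in wild type. GH9C2, the other called member, rose by 0.58 ± 0.09 (missed in 6). The medians of the 3 families were 0.04, 0.10 and 0.04.

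Pectin enzymes were less uniform. Pectin methylesterases, which remove methyl groups from pectin, had 2 of 49 called, the neighbours AT5G51490 (0.52 ± 0.07, missed in 5 refits) and AT5G51500 (0.39 ± 0.07, missed in 6). Of 57 polygalacturonases, which cut demethylated pectin, RCPG and AT1G10640 rose and AT3G15720 fell. AT1G10640 had 5.39, 5.35 and 5.58 in the overexpressor and 4.55, 4.77 and 4.55 in wild type (change 0.82 ± 0.11, limma adjusted p = 0.0154, missed in 5). AT3G15720 fell by 1.36 ± 0.10, with 5.58, 5.53 and 5.44 in the overexpressor and 6.91, 7.07 and 6.67 in wild type. TBL39, of the trichome birefringence-like family that acetylates wall polymers, rose by 0.36 ± 0.05 (missed in 6), as 1 of 24 members. None of 9 cellulose synthase-like genes was called. The largest change among them was -0.27 ± 0.19 for ATCSLC08 (limma adjusted p = 0.591).

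In the phenylpropanoid branch, which makes lignin precursors, 8 genes of a monolignol list of 28 were measured. Of these, 3 rose and 0 fell, the median was 0.28, and 7 of 8 changes were above 0. BGLU45, a beta-glucosidase that frees monolignols from their glucosides, had 6.47, 6.71 and 6.62 in the overexpressor and 6.06, 5.67 and 5.80 in wild type (change 0.75 ± 0.11, limma adjusted p = 0.0194, missed in 4 refits). CCR2, a cinnamoyl-CoA reductase, rose by 0.37 ± 0.07 (limma adjusted p = 0.0478) and ALDH2C4, which oxidises coniferaldehyde and sinapaldehyde, by 0.29 ± 0.05 (limma adjusted p = 0.0445); both missed in 6 refits. The list was written with these 3 rises known, so its count supports nothing beyond them.

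Dirigent proteins and BAHD acyltransferases held single or few called genes. AT1G58170, a dirigent protein of the kind that guides the coupling of lignin-type radicals, had 7.15, 7.10 and 7.16 in the overexpressor and 6.51, 6.36 and 6.41 in wild type (change 0.71 ± 0.07, limma adjusted p = 0.00358), as 1 of 18 measured. Of 47 BAHD acyltransferases, which transfer acyl groups from coenzyme A, 3 rose and 0 fell. They were AT2G25150 (1.62 ± 0.24, missed in 4 refits), FACT, and AT5G07870 (0.42 ± 0.07, missed in 5).

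Families of specialised metabolism gave more falls than rises among their called members. Serine carboxypeptidase-like proteins, some of which act as acyltransferases, had 3 of 32 lower and 0 higher. Beside scpl18, which fell by 2.75 ± 0.11, scpl22 had 3.45, 3.57 and 3.44 in the overexpressor and 3.96, 4.19 and 4.24 in wild type (change -0.64 ± 0.08, missed in 3 refits). SCPL15 fell by 0.58 ± 0.08 (missed in 6). Of 19 terpene synthases, AT3G14540 fell by 1.39 ± 0.11 and AT5G48110 by 0.50 ± 0.05, both called in every refit, and AT5G48110 had 9.85, 9.77 and 9.88 in the overexpressor and 10.38, 10.33 and 10.32 in wild type. Of 55 UDP-glycosyltransferases, which attach sugars to small molecules, UGT85A7 fell by 0.59 ± 0.10 (missed in 6) and UGT73C7 by 0.58 ± 0.09 (missed in 5).

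The remaining enzyme families of this kind were divided or nearly still. Beta-glucosidases had 1 of 24 higher (BGLU45) and 1 lower (BGLU21), and aldehyde dehydrogenases 1 of 8 higher (ALDH2C4) and 1 lower (ALDH3F1). ATGSTF13 was the one called member of 15 glutathione S-transferases. Jacalin-related lectins, several of which bind beta-glucosidase complexes of the root, had 2 of 32 higher and 2 lower. Of these, AT5G49850 rose by 0.73 ± 0.10 (missed in 3 refits) and AT1G33790 fell by 0.57 ± 0.08 (missed in 6), beside JAL22 and AT5G35940. Of the 24 cytochrome P450 genes measured, out of 240 listed, none was called, and the largest change was 0.50 ± 0.23 for CYP71B16 (limma adjusted p = 0.388).

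Among 77 measured bHLH genes, the family of bHLH49 itself, 3 rose and 4 fell, or 9.09% called, with a family median of -0.04. AT1G27660 had 6.22, 6.09 and 6.08 in the overexpressor and 6.93, 6.93 and 6.92 in wild type (change -0.80 ± 0.05, limma adjusted p = 0.0016). ATMYC1, an epidermal factor that acts with the trichome and root hair patterning complex, had 5.25, 5.30 and 5.16 in the overexpressor and 5.78, 6.01 and 5.97 in wild type (change -0.68 ± 0.08, limma adjusted p = 0.00844). AT1G22490 fell by 0.52 ± 0.05, and these 3 genes were called in every refit. SPT, a regulator of carpel and organ growth, fell by 0.38 ± 0.06 (missed in 5).

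The rising bHLH genes were held less firmly. AT2G40200 rose by 0.71 ± 0.13, AT5G65320 by 0.56 ± 0.10 and AT1G72210 by 0.51 ± 0.09, with misses in 6, 6 and 5 refits. Of 25 bZIP factors, EEL, which acts in seed maturation, had 7.90, 8.10 and 8.28 in the overexpressor and 7.31, 7.29 and 7.05 in wild type (change 0.88 ± 0.11, limma adjusted p = 0.0131), and missed only without overexpressor array 2, at an adjusted p of 0.0598. BZIP34 rose by 0.52 ± 0.07 (missed in 4). None of 67 MADS-box genes or 7 WRKY genes was called. The largest changes there were 0.87 ± 0.33 for AGL78 (limma adjusted p = 0.306) and 0.38 ± 0.09 for WRKY42 (limma adjusted p = 0.118).

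Hormone genes gave calls for auxin conjugation and for a vascular peptide. Of 14 GH3 amido synthetases, GH3.3 and WES1, also named GH3.5, rose, the second by 0.28 ± 0.05 (limma adjusted p = 0.0410, missed in 6 refits), and 11 of 14 changes were above 0. CLE44, which encodes the TDIF peptide made in phloem and sensed in the cambium, had 6.51, 6.53 and 6.40 in the overexpressor and 5.49, 5.52 and 5.47 in wild type. Its change of 0.98 ± 0.07 (limma adjusted p = 0.0017) was called in every refit and was the only call among 34 CLE and RALF peptide genes. CLE41, which encodes the same peptide, changed by 0.08 ± 0.10 (limma adjusted p = 0.786).

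No Aux/IAA repressor (0 of 8) and no two-component response regulator (0 of 8) was called. IAA33 changed by -0.43 ± 0.19 (limma adjusted p = 0.379). The cytokinin-response gene RR16, also named ARR16, had 4.28, 4.54 and 4.17 in the overexpressor and 2.86, 3.58 and 2.78 in wild type. These groups did not overlap, and the change of 1.26 ± 0.27 had an adjusted p of 0.0820. Of 32 cysteine-rich repeat secretory proteins, 2 fell (AT5G41290 and AT5G41300), and 21 of 32 changes were below 0, with a median of -0.06. None of 79 low-molecular-weight cysteine-rich proteins was called, and the largest change was 0.60 ± 0.13 for LCR80 (limma adjusted p = 0.0816).

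IQD proteins are calmodulin-binding scaffolds, many of which sit on microtubules. Of 17 measured, 15 changes were below 0, against 52.4% of all named genes, the median was -0.16, and 2 fell. IQD26 had 7.30, 7.27 and 7.28 in the overexpressor and 8.11, 7.92 and 7.92 in wild type (change -0.70 ± 0.07, limma adjusted p = 0.0036), and IQD16 fell by 0.47 ± 0.08 (missed in 6 refits). The median of the 17 genes relative to their wild-type means was -0.17, -0.21 and -0.15 on the overexpressor arrays, -0.0070, -0.06 and -0.052 on the mutant arrays, and 0.036, -0.0060 and -0.023 on the wild-type arrays. The 3 overexpressor medians therefore lay below all the others. Wild-type medians lie near 0 because the same arrays set the reference, so the place below wild type only repeats the family median.

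TRM proteins, partners of TON1 that help to place the division plane, had 0 of 15 called, a median of -0.11 and 12 changes below 0. TRM24 changed by -0.54 ± 0.17 (limma adjusted p = 0.226), with no overlap between groups. The list of cell division and histone genes had 16 of 91 loci measured, a median of -0.15, 12 changes below 0 and 2 falls. ASF1B, a histone chaperone of DNA replication, had 8.42, 8.42 and 8.47 in the overexpressor and 8.84, 8.77 and 8.74 in wild type (change -0.35 ± 0.05, limma adjusted p = 0.0190). 3xHMG-box1, which binds mitotic chromosomes, fell by 0.44 ± 0.08, and both missed in 6 refits. The list was written with these 2 falls known.

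The mutant arrays had division-list medians of 0.0010, -0.04 and -0.12, beside -0.13, -0.10 and -0.11 on the overexpressor arrays and -0.042, -0.0060 and 0.00 on the wild-type arrays. One mutant array thus lay within the range of the overexpressor arrays. None of 10 CHR chromatin remodelling genes was called (median -0.10; CHR42 at -0.29 ± 0.17 had the largest change), and none of 14 tubulin, kinesin and myosin genes, of which 7 changed above 0 and 7 below (median -0.01). TUB5, a beta-tubulin, changed by 0.46 ± 0.09 (limma adjusted p = 0.0723).

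**Figure D4:**
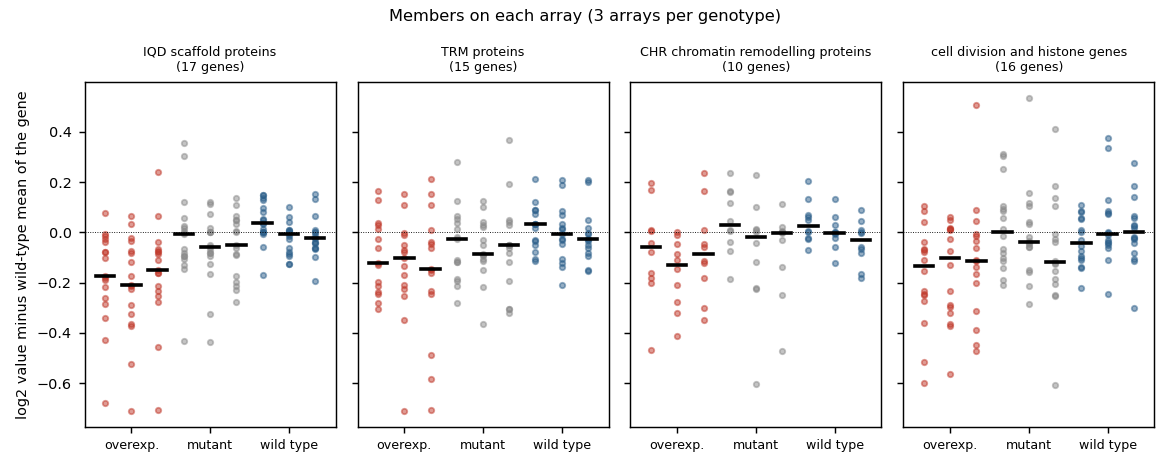
Log2 value minus the gene's wild-type mean for every measured member (points) of 4 families on each of 9 arrays, with the array's median as a bar; overexpressor arrays are red, mutant arrays grey and wild-type arrays blue, from left to right. The IQD medians of the 3 overexpressor arrays lie between -0.21 and -0.15, below those of the other 6 arrays.

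Transporters, stress proteins and protein turnover gave few calls. Of 15 ERD6-like sugar transporters, AT4G04760 fell by 1.79 ± 0.15 and AT5G18840 rose by 0.54 ± 0.09 (missed in 5 refits). AT1G59740, an NPF-family transporter, rose by 0.63 ± 0.09 (missed in 5), as 1 of 14 NPF and NRT genes. KIN2 was the one called gene of 13 cold, abscisic acid and desiccation proteins, with 10.00, 9.88 and 9.81 in the overexpressor and 11.35, 11.21 and 11.21 in wild type (change -1.36 ± 0.12, limma adjusted p = 0.00303). Its close relative KIN1 changed by 0.27 ± 0.14 (limma adjusted p = 0.457), and COR47, another cold-response gene, by 0.07 ± 0.08 (limma adjusted p = 0.784).

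No call was made among 16 SWEET sugar transporters, 10 glutamate receptor-like channels, 7 CHX cation exchangers, 9 thioredoxins and glutaredoxins, 11 autophagy proteins, 14 U-box and ATL ubiquitin ligases, 8 subtilases or 63 plastid-encoded genes. The largest change of each was 0.84 ± 0.52 for SWEET11, -0.24 ± 0.16 for GLR2.7, 0.25 ± 0.11 for CHX15, 0.19 ± 0.14 for GRXC1, 0.56 ± 0.15 for ATG8B, -0.37 ± 0.11 for ATL5, 0.26 ± 0.13 for SBT3.12 and -0.22 ± 0.08 for ndhC. Their limma adjusted p-values lay between 0.150 and 0.620. Of these, ATG8B, which marks autophagic membranes, had 7.01, 6.88 and 7.13 in the overexpressor and 6.40, 6.51 and 6.43 in wild type, without overlap.

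**Figure D5:**
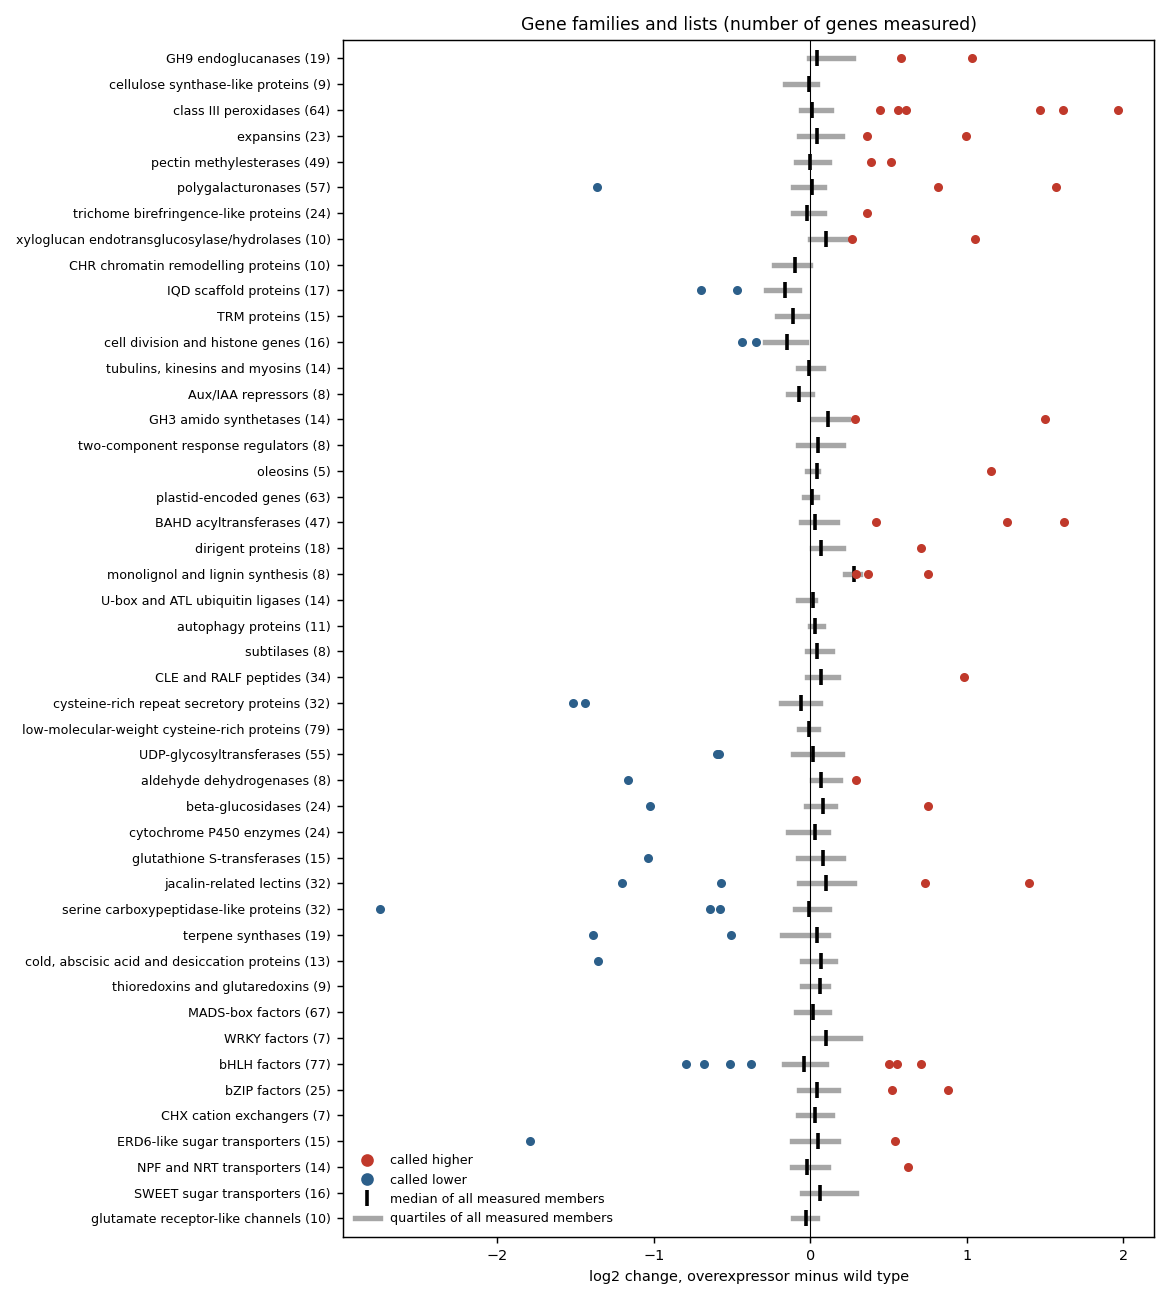
Log2 change (overexpressor minus wild type) of called genes (red higher, blue lower) in 46 families and lists, with the median (black bar) and quartiles (grey band) of all measured members; the number measured is in brackets. Medians lie near 0 in most families, with the monolignol list at 0.28 and the IQD family at -0.16 among those farthest out.

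Chromosome neighbours were examined among 10409 pairs of adjacent measured genes, of which 6 had both members called, and in all 6 both moved the same way. The rising pairs were AT2G17055 (1.25) with AT2G17060 (0.66, missed in 4 refits), both TIR-domain genes, AT2G43470 (0.79, missed in 6) with the peroxidase AT2G43480 (0.61), and the pectin methylesterases AT5G51490 (0.52) and AT5G51500 (0.39). The falling pairs were AT4G30450 (-0.94) with AT4G30460 (-0.49, missed in 4), AT5G41290 (-1.52) with AT5G41300 (-1.44), and AT5G44582 (-0.81, missed in 5) with AT5G44585 (-0.95). Related neighbours can share probe sequence, and the part this plays in these pairs was not tested. The number of such pairs expected when 1.58% of named genes are called was not worked out. The share of all measured pairs that changed the same way was not taken either. The 6 pairs are therefore listed as values only.

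Markers of root tissues were sparse, since few had a probe set of their own. Of 8 root hair markers 4 were measured and 0 called: EXPA7 changed by -0.19 ± 0.06, EXPA18 by -0.06 ± 0.09, AT1G30870 (PRX7) by -0.01 ± 0.09 and AT4G26010 (PRX44) by -0.22 ± 0.07. None of 6 endodermis markers was measured. The stele marker SWEET11 had 4.58, 4.28 and 6.39 in the overexpressor and 4.30, 4.31 and 4.12 in wild type, and its change of 0.84 was 0.19 without overexpressor array 3.

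Of 5 meristem markers 2 were measured, BBM (-0.36 ± 0.13, limma adjusted p = 0.28) and JKD (0.01 ± 0.06). RCPG was the one measured root cap marker of 5, and it rose. Of 8 shoot markers, RCA (0.14 ± 0.09) and LHCB4.1 (-0.00 ± 0.11) were measured and neither was called, with LHCB4.1 at 6.59, 6.49 and 6.51 in the overexpressor and 6.72, 6.37 and 6.50 in wild type. The root hair markers had signals between 8.89 and 10.7 on these 6 arrays, above the array medians (5.85 to 5.92). With 1 to 4 genes a tissue, a difference in the share of root cap, meristem or elongating tissue between the harvested roots was not tested.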

How the data were processed

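RNA was labelled and hybridised to single-channel arrays, and the authors deposited one table of log2 values that RMA had made, per the submitters' processing notes; settings and genome build: not given in the sources used here. These log2 values were used as deposited, since array medians lay between 5.85 and 5.92. Arrays have no read depth; their number limits the precision. Genes were named from the platform annotation and RefSeq (TAIR10.1), which matched 16411 of 16550 named genes; the probe set with the highest mean was kept for the 146 genes with more than 1. A linear model was fitted to all 9 arrays in R 4.3.3 with limma 3.58.1, whose moderated test had 6 residual and 1.85 prior degrees of freedom, with p-values adjusted over 38408 probe sets, and was tested on simulated data.

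Genes named are ranks 11 to 30 by size in each direction, taken among called genes without overlap between the groups. Named too are called family members, the member with the largest change where a family had no call, called neighbours and tissue markers. The rule allowed 4 called members a family; the further peroxidase and bHLH genes, and KIN1, COR47 and CLE41, were chosen after their values were seen. The members and lists were chosen with earlier results of these data known. The family table first held 77 name families; it was replaced by 30 after the called genes and the counts per family had been seen, when families with few or wrongly matched members were dropped, and the pattern for TRM names was later narrowed to remove a wrongly matched gene. The 15 locus lists were written after the called genes were seen. With 1 list of plastid genes read from the annotation, this makes the 46 shown. Same-numbered overexpressor and wild-type arrays correlated at 0.0145, 0.0177 and -0.0881 in their deviations, so the numbers were not taken to pair the arrays. Alternatives were a replicate block, another variance prior, array weights, only the 6 arrays, quantile normalization, median centring, filters on dim, repeated or unnamed probe sets, and each array left out.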

Additional observations from a re-analysis of the deposited data

How the results depend on the processing

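The count of called probe sets, 520 (286 higher and 234 lower), moved with the model. It was 200 (112 higher and 88 lower) with a replicate block, 798 (408 and 390) with trend and robust, 249 (144 and 105) with only the 6 arrays compared, and 878 (413 and 465) for the brighter probe sets, those past the 50th percentile of mean signal. Without 1 array it lay between 174 and 245, with 83 to 131 higher and 84 to 114 lower; fewer samples entered these refits and the fit to 6 arrays. The block and the pairing check are given only here and in the methods, since the repeat numbers were not taken to pair the arrays; the cause of the other shifts was not tested. Array weights gave 632, quantile normalization 524, median centring 489, the 25th percentile 713, distinct probe sets 702 and probe sets with 1 gene 437. The last count (216 higher and 221 lower) is of the 16722 probe sets with exactly 1 gene, so 520 is not its base. With all probe sets tested, 261 named genes were called (137 higher and 124 lower). More named genes thus passed when only their probe sets were tested, and the 1.58% called depends on which probe sets are tested.

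Of 105 called genes examined one by one, 61 kept their call under the replicate block, 61 with only the 6 arrays, 103 with trend and robust, 105 with array weights, 101 after quantile normalization, 96 after median centring and 52 to 63 without 1 array, and 0 reversed. Values of these genes did not overlap, so a reversal was possible only after quantile normalization or median centring, which alter the values. The family medians of IQD (-0.17 to -0.14), TRM (-0.11 to -0.07), cell division (-0.16 to -0.11), CHR (-0.15 to -0.05) and monolignol genes (0.24 to 0.30) kept their sign over the 16 alternatives. All alternatives reuse the same arrays. The replicate block, trend and robust, and the fit to 6 arrays leave each change as it was, so they could not move a median. Of 46 family medians, 28 changed sign or rounded to 0 in at least 1 alternative, and terpene synthases, at 0.04, ranged between -0.37 and 0.05. The filters move a median only by dropping members, so such a range can mix medians of different sets of genes.

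Among the single genes examined, 4 uncalled markers with changes near 0 changed sign. Without 1 array, AT1G30870 lay between -0.06 and 0.02, EXPA18 between -0.13 and 0.00, LHCB4.1 between -0.08 and 0.09 and JKD between -0.01 and 0.04. LHCB4.1 was also 0.01 with array weights and 0.00 after median centring.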

Other observations

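Some called genes outside the lists were picked out after their values were seen, and are given as values only. AT5G02180, an amino acid transporter of the AVT group, had 7.21, 7.09 and 7.15 in the overexpressor and 7.82, 7.92 and 7.79 in wild type (change -0.69 ± 0.06, limma adjusted p = 0.00262). PID2, an AGC-family kinase related to PINOID, fell by 0.44 ± 0.05, with 6.51, 6.54 and 6.47 in the overexpressor and 6.92, 6.97 and 6.95 in wild type. TRY, a single-repeat MYB that inhibits trichome fate in neighbouring cells, fell by 0.85 ± 0.14 and missed the threshold in 6 of 6 refits without 1 array. AGO7, the Argonaute that acts with miR390 in trans-acting siRNA formation, fell by 0.69 ± 0.11 and missed in 5.

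LBD29, a factor of lateral root formation downstream of auxin response factors, had 8.50, 8.45 and 8.62 in the overexpressor and 7.70, 7.66 and 7.56 in wild type. It rose by 0.88 ± 0.09 (limma adjusted p = 0.00518) and was called in every refit. AT3G27400, a pectate lyase-like gene, rose by 0.90 ± 0.09 and AT1G62770, a pectin methylesterase inhibitor-like gene, by 0.72 ± 0.07, both called in every refit. AT3G50130 and AT3G50190, of the same DUF247 family and region as AT3G50150, fell by 0.43 ± 0.06 and 0.66 ± 0.09, with misses in 6 and 5 refits.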
